A study of Homo sapiens with 9 samples.

Results

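Expression of 37 interferon-stimulated and RNA-sensing genes was examined in DU145 cells, an established line of human prostate cancer, with and without knockdown of FZD6, a frizzled receptor for Wnt ligands. The genes were chosen by name, and all 37 were among the 27902 genes of the tables. RNA-seq was performed on 9 libraries of a wild-type genotype: 3 of cells expressing a scrambled short hairpin RNA (shRNA), 3 of cells expressing shRNA1 against FZD6 and 3 of cells expressing shRNA2 against FZD6. All cells carried a hairpin delivered by a pLKO.1 lentivirus, the controls included, so untransduced cells are not part of the comparison. The labels name each group's libraries as triplicates and do not say whether they came from separate cultures, so p-values measure the spread between these libraries, which may be technical.

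Interferons are cytokines that are induced when sensors such as RIG-I (RIGI) and MDA5 (IFIH1) detect foreign RNA and signal through the adaptor MAVS to the transcription factors IRF3 and IRF7. They bind cell surface receptors whose kinases JAK1 and TYK2 phosphorylate STAT2 and related factors. With IRF9 these enter the nucleus, bind the interferon-stimulated response element (ISRE) and switch on a large set of antiviral genes. Double-stranded RNA can trigger this pathway, and a raised interferon response is a known side effect of some hairpins. The libraries were therefore asked whether either FZD6 hairpin raised these genes over the scrambled hairpin.

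The core of the ISRE was searched for in RefSeq promoters of the assembly GRCh38.p14, from 250 bases before to 50 bases after each start site, as GAAANNGAAA on either strand. Promoter entries existed for 28 members, and 20 of them (71.4%) held at least 1 match, against 4.38% of the 27305 genes with an entry and 3.50% of the 9648 tested genes with an entry. In 13 members a promoter held 2 or more matches. The stretches before the start site are shown for the 4 members with a match that stood highest among the genes that passed the test below, ordered by the size of their change. Each is the 180 bases ending just before the start site, 5′ to 3′ on the gene's strand, with the matches in capitals. They lie at chr1:27672193-27672372 (IFI6, minus strand), chr10:89327817-89327996 (IFIT3, plus strand), chr1:1013317-1013496 (ISG15, plus strand) and chr10:89392443-89392622 (IFIT1, plus strand).
IFI6: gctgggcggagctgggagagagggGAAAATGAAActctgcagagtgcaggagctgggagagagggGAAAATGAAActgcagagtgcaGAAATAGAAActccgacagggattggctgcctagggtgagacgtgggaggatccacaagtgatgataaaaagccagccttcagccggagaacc
IFIT3: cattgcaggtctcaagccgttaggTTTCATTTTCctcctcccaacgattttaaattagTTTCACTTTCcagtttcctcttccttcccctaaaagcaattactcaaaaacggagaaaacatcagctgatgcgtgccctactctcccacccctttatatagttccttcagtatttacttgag
ISG15: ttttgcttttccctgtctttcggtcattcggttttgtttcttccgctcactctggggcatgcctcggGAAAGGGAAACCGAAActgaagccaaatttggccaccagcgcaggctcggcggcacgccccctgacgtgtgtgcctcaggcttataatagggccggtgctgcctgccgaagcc
IFIT1: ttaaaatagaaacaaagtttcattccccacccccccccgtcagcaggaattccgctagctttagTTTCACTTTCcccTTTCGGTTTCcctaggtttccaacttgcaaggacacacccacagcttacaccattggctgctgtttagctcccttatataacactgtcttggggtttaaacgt
IFI6 held 3 matches, which began 156, 115 and 93 bases before the start site. The 2 matches of ISG15, at 113 and 107 bases, overlap and are drawn as 1 run of capitals. In IFIT3, at 156 and 122 bases, and IFIT1, at 116 and 103 bases, both matches were read from the opposite strand and appear as TTTC words. ADAR, HERC6, IFI35, IRF1, IRF9, OAS1, SAMHD1 and STAT2 had an entry with no match in this window. The median log2 fold change, on the scale used below, was -0.04 with shRNA1 and 0.02 with shRNA2 in the 15 tested members with a match, and -0.05 and -0.01 in the 7 with none. For shRNA2 against shRNA1 it was 0.05 in those with a match and 0.07 in those with none. IFIT2, OASL, OAS2, MX2, IFITM2, USP18, DHX58, IRF3 and IRF7 had no entry.

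FPKM relates the fragments of a transcript to its length and to the depth of the library. The depth, in units of 1e6 fragments, was estimated as 32.3 to 40.4 per library. FZD6 was 20.9, 20.5 and 20.04 FPKM in the controls, 9.47, 10.2 and 9.80 FPKM with shRNA1 and 7.84, 8.79 and 7.69 FPKM with shRNA2. Its mean was 52.1% lower with shRNA1 and 60.5% lower with shRNA2 (two-sided exact permutation test of the 6 knockdown against 3 control libraries, p = 0.0238, the smallest this test can give). The epithelial markers KRT8, KRT18, EPCAM and CDH1 were expressed, and some moved with the hairpins. EPCAM rose with shRNA1 by 0.20 and with shRNA2 by 0.33 as a log2 fold change (limma adjusted p = 0.0418 and 0.00552), CDH1 fell with both (-0.21 and -0.35, adjusted p = 0.0153 and 0.00175) and KRT8 fell with shRNA2 (-0.15, adjusted p = 0.0145). Of 6 leukocyte markers, PTPRC and CD3E were at 0 in all libraries, but the summed level was 18.1 to 19.2 FPKM in controls, 22.2 to 23.7 FPKM with shRNA1 and 26.0 to 26.8 FPKM with shRNA2, nearly all of it CD68, a lysosomal protein. Whether these markers had a part in the results was not tested. Within shRNA2, replicate 2 stood farthest from its group mates, with a median absolute log2 difference of 0.0972 against 0.0618 and 0.0688 for the other two and 0.0386 to 0.0517 in the other groups. Bulk RNA cannot tell apart fewer expressing cells and less RNA per cell.

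The antiviral program was expressed at a basal level in the control cells, and very unevenly. ADAR, an enzyme that edits adenosine to inosine in double-stranded RNA, was highest at 66.5 ± 0.943 FPKM (SD, n = 3). ISG15, a ubiquitin-like protein that is joined to other proteins, followed at 40.4 ± 2.44 FPKM and the transcription factor IRF3 at 35.4 ± 1.32 FPKM. At the other end, 9 members averaged under 1 FPKM over the 9 libraries and were not tested. Of these IFIH1, at 0.771 ± 0.0721 FPKM in controls, was the highest. IFI27 and IFI44L, which are among the genes raised most in many interferon responses, were close to 0. IFI27 did not exceed 0.00278 FPKM in the 6 knockdown libraries, and its highest value, 0.151 FPKM, came from 1 control library and an estimated 3.74 fragments. IFI44L did not exceed 0.0144 FPKM in any library.

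**Figure D1:**
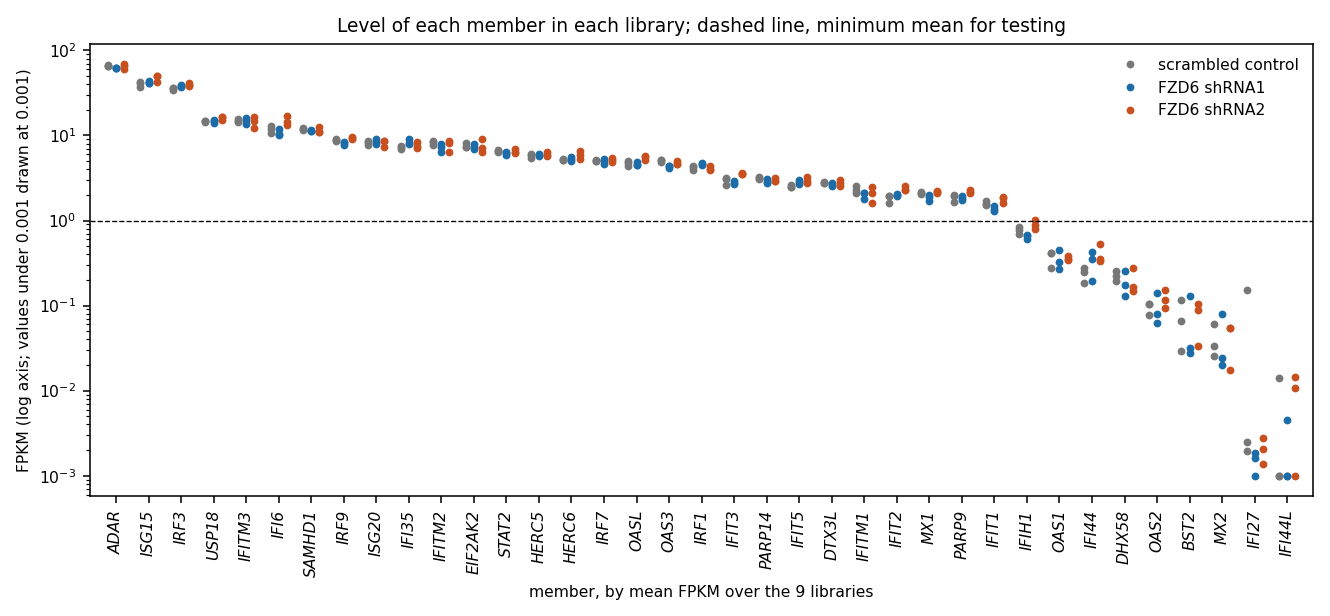
FPKM of the 37 members in each library on a log axis, ordered by mean, with grey points for scrambled control, blue for shRNA1 and orange for shRNA2. The points of the 3 groups lie close together for the 28 members above the dashed line at 1 FPKM, from ADAR at a mean of 64.5 FPKM to IFIT1 at 1.59 FPKM, and scatter widely for the lowest members.

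Transcripts of the interferons themselves were at or near 0. Of 21 interferon genes, 14 were at 0 in all 9 libraries, and the highest value of any was 0.146 FPKM, of IFNE, an interferon made by epithelia. IFNB1, the interferon that cells usually make first on sensing RNA, was at 0 in 8 of 9 libraries and at 0.0366 FPKM in the remaining library. No interferon could be tested, and a low or brief induction would not be detectable at this depth.

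With shRNA2 a few members rose by small amounts, and with shRNA1 none rose. Of the 28 members tested, knockdown as a whole (6 libraries against 3) raised 1 and lowered none at an adjusted p under 0.05 by limma, with 4 members at an unadjusted p under 0.05. Over all 12509 genes tested 20.6% passed, 13.5% higher and 7.1% lower. With shRNA1, 1 member fell and none rose, against 18.8% of all genes, 11.7% higher and 7.19% lower. With shRNA2, 5 members (17.9%) rose and none fell, against 26.7% of all genes, 15.3% higher and 11.4% lower. Between the hairpins, 4 members (14.3%) were higher with shRNA2 than with shRNA1 and none lower, where 6.71% of all genes differed, 1.92% higher and 4.79% lower. For shRNA2 the share of members that rose, 17.9%, was thus close to and slightly above the 15.3% of all genes that rose, and no member was among the genes that fell. For knockdown and shRNA1 the shares that rose were below those of all genes, and between the hairpins the share that was higher with shRNA2 was above it. When the fit held only the groups compared, no member was called with shRNA2, against 16.9% of all genes. The counts rested on single libraries: without shRNA2 replicate 2 there were 7 calls for shRNA2 and 4 between the hairpins, and without any other 1 library there were 1 to 3 and 0 to 1. For knockdown as a whole the direction also turned, since without shRNA2 replicate 1 the only call was a fall, of OAS3 (adjusted p = 0.0312), and IRF3 was not called.

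The size of the differences was small throughout. The median log2 fold change of the 28 members, on the scale of log2(FPKM + 1), was 0.01 for knockdown, -0.03 for shRNA1 and 0.04 for shRNA2 against controls, where the median of all genes tested was 0.03 in each. It was 0.07 for shRNA2 against shRNA1, where that of all genes was near 0, and 24 of 28 members (85.7%) lay higher with shRNA2, against 50.1% of all genes. The highest upper bound of any tested member's 95% confidence interval was 0.34 on the log2 scale with shRNA1 (IFI35, 1.27-fold) and 0.52 with shRNA2 (IFI6, 1.44-fold). The lowest lower bounds were -0.43 and -0.36, both of IFITM2. Folds here and below are of FPKM + 1. They lie nearer to no change than folds of FPKM itself, most so in members of low FPKM. IFIT2 with shRNA2, for example, was 1.19-fold on this scale for means of 1.84 FPKM in controls and 2.39 FPKM with shRNA2. Data were simulated at this size with changes planted in 200 of 12509 genes. A planted log2 change of 0.25 was called in 51% of genes for shRNA2 against control and in 47% for shRNA1. One of 0.5 was called in 87% and 88%. In the real data 26.7% and 18.8% of genes passed for shRNA2 and shRNA1, which makes the adjusted threshold looser. These rates therefore do not give the power of the tests above.

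**Figure D2:**
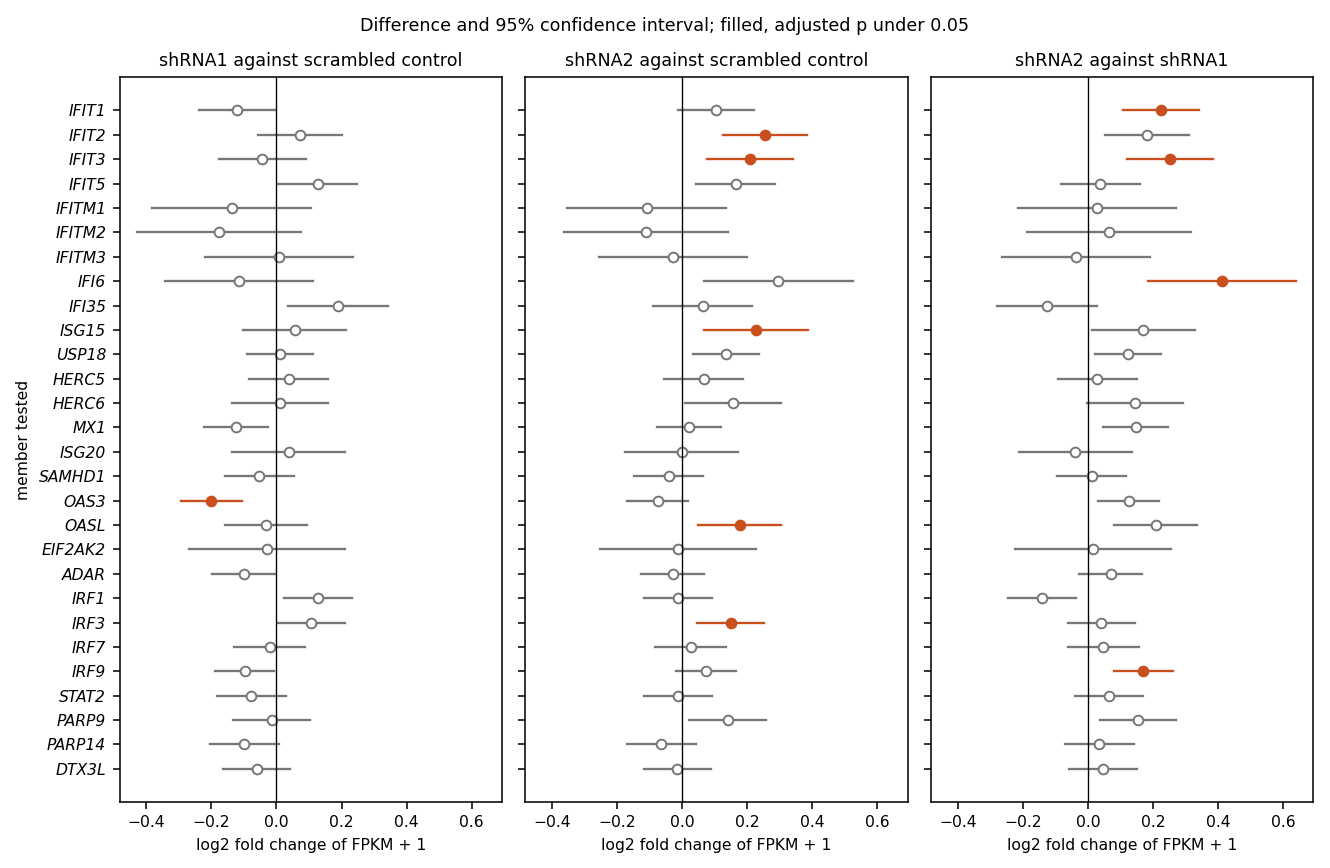
Log2 fold change of FPKM + 1 (point) with its 95% confidence interval (line) for the 28 members tested, for shRNA1 against control, shRNA2 against control and shRNA2 against shRNA1, with filled orange points for an adjusted p under 0.05. With shRNA1 only OAS3 is filled, and on the lower side. With shRNA2 IFIT2, IFIT3, ISG15, OASL and IRF3 are filled on the higher side, and between the hairpins IFIT1, IFIT3, IFI6 and IRF9.

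Members whose libraries did not overlap between groups were also counted. The shares of all genes beside them hold both directions and were not split, so members on a single side have no matching share. With shRNA1, 10 members did not overlap with controls, 4 higher and 6 lower, or 35.7% against 46.8% of all genes. With shRNA2 there were 9, all higher, or 32.1% against 40.6% in either direction. Between the hairpins there were 11, of which 10 were higher with shRNA2, or 39.3% against 26.4% in either direction. For the 6 knockdown libraries against controls there were 2, IFIT5 and IRF3, or 7.14% against 25.9%.

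Transcript length moved with the fold changes over all genes. Spearman's rho of length with log2 fold change, taken across the 12295 tested genes of known length and so not over replicates, was -0.435 for knockdown, -0.443 for shRNA1, -0.364 for shRNA2 and 0.055 between the hairpins. Over the 28 members rho was -0.256, -0.0958, -0.236 and -0.0898. When the trend was removed, 1, 1, 2 and 4 members were called in the 4 comparisons, against 12.3%, 12.2%, 23.5% and 9.47% of all genes. Some of these were other members than before. For knockdown the call was IFIT5 in place of IRF3, and for shRNA1 it was IRF9 in place of OAS3. For shRNA2 the calls were IFIT2 and IFIT5. Values without the trend stand beside the calls of members below. For the other pathway genes neither these values nor fits that left out 1 library are given.

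Of the IFIT proteins, IFIT1 binds viral RNA that lacks the host's cap methylation and blocks its translation. The IFIT genes lie side by side on chromosome 10, and the annotated span of LIPA overlaps each of them. IFIT2 (chromosome 10, 89302046 to 89309271) was 1.62, 1.95 and 1.95 FPKM in the controls, 2.02, 2.01 and 1.92 FPKM with shRNA1 and 2.28, 2.57 and 2.31 FPKM with shRNA2. All shRNA2 libraries were above all other libraries. The rise with shRNA2 was 0.26 ± 0.06 (SE) on the log2 scale (adjusted p = 0.0145), and it kept its call without the length trend (0.25, adjusted p = 0.0111) and in each of 9 fits that left out 1 library (adjusted p = 0.0258 to 0.0335). In the fit of only the groups compared it missed the threshold (adjusted p = 0.0501). With shRNA1 the difference was 0.07 (adjusted p = 0.382), and the difference between the hairpins, 0.18, did not pass (adjusted p = 0.102).

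IFIT3 (chromosome 10, 89327997 to 89340968) was 2.58, 3.19 and 3.05 FPKM in the controls, 2.94, 2.80 and 2.71 FPKM with shRNA1 and 3.58, 3.48 and 3.57 FPKM with shRNA2. Again all shRNA2 libraries were the highest, while shRNA1 and control libraries overlapped. It rose with shRNA2 by 0.21 ± 0.06 against control (adjusted p = 0.0322) and by 0.25 ± 0.06 against shRNA1 (adjusted p = 0.042). Without the length trend these were 0.17 (adjusted p = 0.0618) and 0.26 (adjusted p = 0.0303). The first call was lost without control replicate 3, shRNA1 replicate 2, shRNA2 replicate 1 or shRNA2 replicate 3 (highest adjusted p = 0.0822), and the second was kept only without control replicate 1 or 2 (highest adjusted p = 0.135).

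IFIT1 (chromosome 10, 89392623 to 89406487) was 1.58, 1.69 and 1.51 FPKM in the controls, 1.49, 1.30 and 1.36 FPKM with shRNA1 and 1.84, 1.90 and 1.62 FPKM with shRNA2. The shRNA1 libraries were below all others, and the shRNA2 libraries overlapped with the controls. It was 0.22 ± 0.05 higher with shRNA2 than with shRNA1 (adjusted p = 0.042), and 0.23 without the length trend (adjusted p = 0.0437). Against control neither -0.12 with shRNA1 (adjusted p = 0.136) nor 0.10 with shRNA2 (adjusted p = 0.168) passed. Among the 9 fits that left out 1 library the call held only without shRNA2 replicate 3 (highest adjusted p = 0.136). At this low level the pseudocount matters: with 0.1 in place of 1 the difference between the hairpins was 0.35. IFIT5 ranged from 2.45 to 2.64 FPKM in controls and from 2.69 to 3.22 FPKM in knockdown libraries without overlap, with differences of 0.13 and 0.16 that missed the threshold (adjusted p = 0.129 and 0.0521). Without the length trend the rise passed with shRNA2 (0.18, adjusted p = 0.0229) and for knockdown (0.16, adjusted p = 0.0329). With shRNA1 it did not (0.13, adjusted p = 0.0815).

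ISG15 and its enzymes, 4 genes, all averaged higher with shRNA2 than in controls. By limma 3 of the 4 had an unadjusted p under 0.05, and only ISG15 passed the adjusted threshold. ISG15 (chromosome 1, 1013497 to 1014540) was 41.4, 37.6 and 42.1 FPKM in the controls, 41.2, 41.4 and 43.3 FPKM with shRNA1 and 49.8, 42.8 and 49.9 FPKM with shRNA2. A pair of shRNA2 libraries stood clearly higher and replicate 2 lay just above the highest control. The rise with shRNA2 was 0.23 ± 0.07, a 1.17-fold change (adjusted p = 0.0456). With a transcript of 637 bases, ISG15 is short, and without the length trend the difference was 0.11 (adjusted p = 0.155). Among the 9 fits that left out 1 library, the call held only without shRNA2 replicate 2, where the difference was 0.30 (adjusted p = 0.00741), and the other fits gave adjusted p up to 0.134. With shRNA1 the difference was 0.06 (adjusted p = 0.603), and that between the hairpins was 0.17 (adjusted p = 0.195).

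USP18, the protease that removes ISG15 and also dampens the interferon receptor, was 14.8, 14.7 and 14.2 FPKM in the controls, 14.1, 14.9 and 15.1 FPKM with shRNA1 and 16.7, 15.2 and 16.6 FPKM with shRNA2. All shRNA2 libraries were the highest, with a difference of 0.14 from control that did not pass (adjusted p = 0.0543). HERC5, the main ligase for ISG15, was 5.37, 6.04 and 5.82 FPKM in controls, 6.13, 5.95 and 5.68 FPKM with shRNA1 and 5.75, 6.48 and 5.95 FPKM with shRNA2, which overlap. HERC6, a related ligase, was 5.11, 5.36 and 5.20 FPKM in controls, 5.06, 5.52 and 5.24 FPKM with shRNA1 and 5.35, 6.61 and 5.91 FPKM with shRNA2. Its shRNA2 libraries reached higher, without passing (0.16, adjusted p = 0.107).

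Among the IFI proteins, IFI6 (chromosome 1, 27666064 to 27672192), a protein of the endoplasmic reticulum and mitochondria, gave the largest difference of any member in these comparisons. It was 12.8, 10.8 and 11.97 FPKM in the controls, 11.8, 10.3 and 10.5 FPKM with shRNA1 and 17.0, 13.2 and 14.3 FPKM with shRNA2. The shRNA2 libraries lay above all others and were widely spread. Between the hairpins the difference was 0.41 ± 0.10, a 1.33-fold change (adjusted p = 0.0499), and 0.42 without the length trend (adjusted p = 0.0348). Among the fits that left out 1 library this call held only without shRNA2 replicate 2, and the others gave 0.32 to 0.47 with adjusted p up to 0.153. Against control, 0.30 with shRNA2 (adjusted p = 0.0605) and -0.12 with shRNA1 (adjusted p = 0.44) did not pass. IFI35, a protein that binds the transcriptional regulator NMI, was 7.60, 7.35 and 6.88 FPKM in controls, 9.09, 7.97 and 8.26 FPKM with shRNA1 and 7.59, 7.06 and 8.30 FPKM with shRNA2. Only the shRNA1 libraries lay above all controls (0.19, adjusted p = 0.0843). IFI44, which was not tested, was 0.187 to 0.276 FPKM in controls, 0.197 to 0.423 FPKM with shRNA1 and 0.330 to 0.524 FPKM with shRNA2, or an estimated 10.2 to 28.4 fragments per library.

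**Figure D3:**
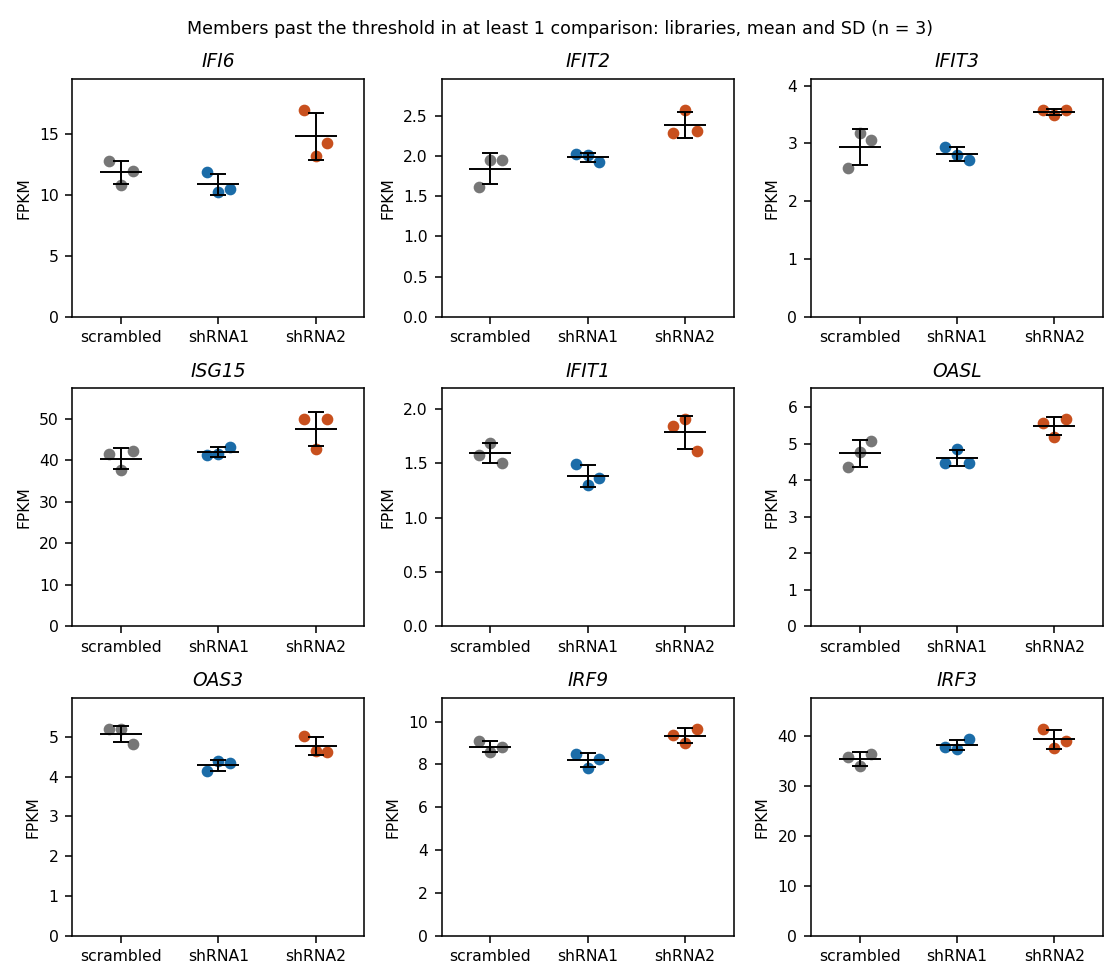
FPKM by library (points), group mean (long horizontal line) and SD (error bar, n = 3) for the 9 members past an adjusted p of 0.05 in at least 1 comparison, with each axis starting at 0. The changes are small against the level: the group means of ISG15 run from 40.4 to 47.5 FPKM and those of IFI6 from 10.9 to 14.8 FPKM.

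The OAS family makes 2′-5′ oligoadenylates, which activate the nuclease RNase L, except for OASL, which has lost that activity. Of its 2 tested members, OAS3 fell with shRNA1 and OASL rose with shRNA2, and the difference between the hairpins passed for neither. OAS3 (chromosome 12, 112938474 to 112973251) was 5.20, 5.19 and 4.83 FPKM in the controls, 4.14, 4.38 and 4.34 FPKM with shRNA1 and 5.03, 4.64 and 4.62 FPKM with shRNA2. The shRNA1 libraries were the lowest, and shRNA2 libraries overlapped with the controls. It fell with shRNA1 by 0.20 ± 0.04 on the log2 scale (adjusted p = 0.0168). With its long transcript of 6719 bases, the difference without the length trend was -0.12 (adjusted p = 0.177), and the call was lost without control replicate 1 or 2 or shRNA1 replicate 1 or 3 (adjusted p up to 0.0611). With shRNA2 the difference was -0.08 (adjusted p = 0.209), and between the hairpins it was 0.13 (adjusted p = 0.118).

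OASL (chromosome 12, 121017761 to 121039246) was 4.35, 4.77 and 5.08 FPKM in the controls, 4.47, 4.86 and 4.47 FPKM with shRNA1 and 5.57, 5.19 and 5.66 FPKM with shRNA2. All shRNA2 libraries were above the rest. It rose with shRNA2 by 0.18 ± 0.05 (adjusted p = 0.0487), and by 0.17 without the length trend, which did not pass (adjusted p = 0.0713). The call held only without control replicate 3 or shRNA2 replicate 2 among the fits that left out 1 library (adjusted p up to 0.13). With shRNA1 the difference was -0.03 (adjusted p = 0.719), and between the hairpins it was 0.21 (adjusted p = 0.0655). OAS1 did not exceed 0.445 FPKM and OAS2 did not exceed 0.151 FPKM in any library, and neither was tested.

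Of the transcription factors, IRF3, the factor that RNA sensing activates by phosphorylation, was the only member to pass for knockdown as a whole. IRF3 (chromosome 19, 49659572 to 49665857), which overlaps with BCL2L12, was 35.9, 34.0 and 36.5 FPKM in the controls, 37.9, 37.5 and 39.4 FPKM with shRNA1 and 41.5, 37.7 and 39.0 FPKM with shRNA2. All knockdown libraries were above all controls. The difference was 0.13 ± 0.04 for knockdown (adjusted p = 0.0498), 0.11 for shRNA1 (adjusted p = 0.129) and 0.15 ± 0.04 for shRNA2 (adjusted p = 0.0428). Without the length trend it was 0.04 for knockdown (adjusted p = 0.473) and 0.07 for shRNA2 (adjusted p = 0.24). Among the fits that left out 1 library, both calls held only without shRNA2 replicate 2, and adjusted p reached 0.187 and 0.127.

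IRF9 (chromosome 14, 24161265 to 24166565), the DNA-binding partner of STAT2, was 9.10, 8.57 and 8.82 FPKM in the controls, 8.48, 7.83 and 8.26 FPKM with shRNA1 and 9.37, 8.99 and 9.67 FPKM with shRNA2. The shRNA1 libraries were the lowest and the shRNA2 libraries overlapped with the controls. The difference between the hairpins was 0.17 ± 0.04 (adjusted p = 0.0446) and 0.18 without the length trend (adjusted p = 0.0166). It held only without shRNA2 replicate 2 among the fits that left out 1 library (adjusted p up to 0.134). Neither hairpin passed against control, with -0.10 for shRNA1 (adjusted p = 0.122) and 0.07 for shRNA2 (adjusted p = 0.207), but without the length trend the fall with shRNA1 was 0.17 and passed (adjusted p = 0.0197).

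STAT2 was 6.34, 6.64 and 6.72 FPKM in controls, 6.42, 5.90 and 6.19 FPKM with shRNA1 and 6.93, 6.39 and 6.19 FPKM with shRNA2, with overlapping groups. IRF7, the factor that amplifies type I interferon production, was 4.94, 5.07 and 5.12 FPKM in controls, 5.24, 4.60 and 5.05 FPKM with shRNA1 and 5.43, 4.94 and 5.11 FPKM with shRNA2. Its values add the entry of an alternate contig, which had nearly equal FPKM. IRF1 was 4.36, 3.90 and 4.23 FPKM in controls, 4.78, 4.54 and 4.60 FPKM with shRNA1 and 3.96, 4.03 and 4.37 FPKM with shRNA2. It was the only member whose shRNA1 libraries all lay above both other groups in this class, with 0.13 against control (adjusted p = 0.0872).

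The RNA-sensing enzymes did not move past the threshold. ADAR was 66.1, 67.6 and 65.8 FPKM in the controls, 62.2, 61.8 and 61.9 FPKM with shRNA1 and 66.2, 68.4 and 60.9 FPKM with shRNA2. The shRNA1 libraries lay below the controls by 0.10 (adjusted p = 0.133) and the shRNA2 libraries spread across both. EIF2AK2, the kinase PKR that double-stranded RNA activates to halt translation, was 7.30, 8.10 and 7.31 FPKM in controls, 6.99, 7.85 and 7.35 FPKM with shRNA1 and 7.22, 8.99 and 6.43 FPKM with shRNA2. These groups overlap, and the interval of the difference from control ran from -0.27 to 0.21 with shRNA1 and from -0.25 to 0.23 with shRNA2. IFIH1, the sensor MDA5, was 0.842, 0.771 and 0.698 FPKM in controls, 0.604, 0.680 and 0.661 FPKM with shRNA1 and 0.786, 1.00 and 0.877 FPKM with shRNA2. Its shRNA1 libraries lay below and its shRNA2 libraries overlapped with the controls, without a test. DHX58, the sensor LGP2, lay between 0.131 and 0.278 FPKM.

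The IFITM proteins, which stop enveloped viruses from fusing with endosomes, showed no call in any comparison and no unadjusted p under 0.05. IFITM3 was 14.7, 15.4 and 14.3 FPKM in controls, 15.9, 15.1 and 13.7 FPKM with shRNA1 and 16.5, 12.3 and 14.9 FPKM with shRNA2. IFITM2 was 8.43, 8.56 and 7.82 FPKM in controls, 7.35, 7.95 and 6.36 FPKM with shRNA1 and 8.49, 6.32 and 8.09 FPKM with shRNA2. In both, and in IFITM1, shRNA2 replicate 2 was the lowest library of all. IFITM1 ranged from 1.62 to 2.51 FPKM. These genes are close paralogs whose reads the counting may have split. BST2, or tetherin, which holds budding virus at the cell surface, did not exceed 0.13 FPKM.

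No call was made among the other antiviral effectors. SAMHD1, which depletes deoxynucleotides, was 12.01, 12.2 and 11.5 FPKM in controls, 11.5, 11.4 and 11.4 FPKM with shRNA1 and 11.1, 12.4 and 11.1 FPKM with shRNA2. ISG20, an exonuclease, was 8.50, 7.63 and 8.29 FPKM in controls, 8.27, 7.84 and 9.05 FPKM with shRNA1 and 8.56, 7.26 and 8.62 FPKM with shRNA2. Both overlapped between all groups. MX1, a GTPase that traps viral nucleocapsids and a common readout of interferon, averaged 2.12 ± 0.0662 FPKM in controls, 1.86 ± 0.15 FPKM with shRNA1 and 2.16 ± 0.076 FPKM with shRNA2. Its difference from control was -0.12 with shRNA1 (adjusted p = 0.078) and 0.02 with shRNA2 (adjusted p = 0.74). MX2 did not exceed 0.0793 FPKM. PARP9 and DTX3L, which act as a complex and whose genes overlap, and PARP14, another ADP-ribosyltransferase, averaged 1.88, 2.79 and 3.18 FPKM in controls. None passed, and PARP9 with shRNA2 was nearest at 0.14 (adjusted p = 0.078).

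Several members were split over RefSeq transcript entries whose shares varied much more than their sums. In 7 members at least 2 entries averaged 1 FPKM or more. For IRF7, 1 of the 7, these entries were the same transcript on chromosome 11 and on an alternate contig. Those of IFI35 each ran from near 0 to above 6 FPKM between libraries while their gene's sum stayed between 6.88 and 9.09 FPKM. Entries of ADAR, of which 9 averaged at least 1 FPKM, ran from 0.00 to 21.2 FPKM for a sum of 60.9 to 68.4 FPKM, and the 6 of IRF3 from 0.00 to 25.8 FPKM for a sum of 34.0 to 41.5 FPKM. No comparison was therefore made between entries.

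The lists of genes around the members on the pathway did not share a direction. With shRNA2, 7 of 9 tested receptors and kinases lay lower than control, and 18 of 26 other interferon-stimulated genes lay higher. The sensing genes split into 8 higher and 8 lower, and 6 of 10 negative regulators lay lower. Of all genes tested, 57% lay higher with shRNA2. Of the interferon receptors and kinases, 9 of 10 were tested. With shRNA2 2 fell, IFNAR1, a chain of the type I receptor, from 16.5 ± 0.665 to 13.4 ± 1.07 FPKM (-0.28, adjusted p = 0.0107) and the kinase TYK2 from 21.9 ± 0.884 to 20.1 ± 0.671 FPKM (-0.12, adjusted p = 0.0495). Over all genes 11.4% fell with shRNA2. With shRNA1 none passed, against 18.8% of all genes, and 1 had an unadjusted p under 0.05. For knockdown as a whole IFNGR1, a chain of the receptor for interferon gamma, rose (0.20, adjusted p = 0.028), where 13.5% of all genes rose.

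Of the genes for nucleic acid sensing upstream of interferon, 16 of 19 were tested. With shRNA2 2 fell and 1 rose, where 11.4% of all genes fell and 15.3% rose. None rose with shRNA1, where 11.7% of all genes rose. MAVS, the adaptor of RIG-I and MDA5, fell with both, from 5.77 ± 0.186 FPKM to 4.80 ± 0.0565 FPKM with shRNA1 (-0.22, adjusted p = 0.00768) and 4.98 ± 0.209 FPKM with shRNA2 (-0.18, adjusted p = 0.00893). TRIM25, a ubiquitin ligase that promotes RIG-I signaling, averaged 24.2 ± 0.584 FPKM in controls, 24.9 ± 0.604 FPKM with shRNA1 and 17.7 ± 0.63 FPKM with shRNA2. It fell with shRNA2 by 0.43 against control (adjusted p = 0.000508) and by 0.48 against shRNA1 (adjusted p = 0.000584), the largest change among the tested genes of these lists. CGAS, the sensor of DNA in the cytosol, rose with shRNA2 (0.25, adjusted p = 0.0217) from 6.97 ± 0.251 to 8.46 ± 0.699 FPKM.

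**Figure D4:**
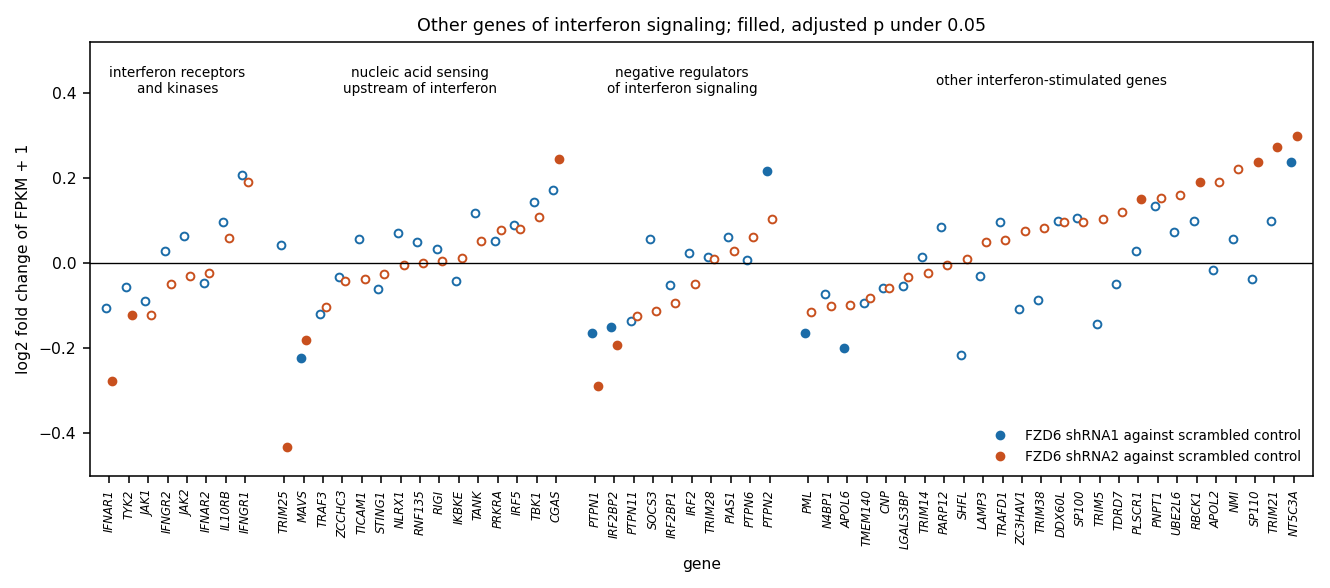
Log2 fold change of FPKM + 1 against scrambled control for genes tested in 4 lists of interferon signaling, blue for shRNA1 and orange for shRNA2, with filled points for an adjusted p under 0.05. Points lie on both sides of 0 in each list, and TRIM25 with shRNA2, at -0.43, lies farthest out.

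Of the negative regulators, 10 of 11 were tested. With shRNA1 1 rose and 2 fell, where 11.7% of all genes rose and 7.19% fell. With shRNA2 none rose and 2 fell, where 15.3% of all genes rose and 11.4% fell. PTPN1, a phosphatase that acts on JAK2 and TYK2, fell from 54.1 ± 1.07 FPKM to 48.2 ± 0.125 FPKM with shRNA1 (-0.16, adjusted p = 0.00888) and 44.1 ± 1.01 FPKM with shRNA2 (-0.29, adjusted p = 0.00077). IRF2BP2, a corepressor that binds IRF2, also fell with both (-0.15 and -0.19, adjusted p = 0.0124 and 0.0035). PTPN2, a related phosphatase that acts on JAK1, rose with shRNA1 (0.22, adjusted p = 0.0103).

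A further list held 48 other interferon-stimulated genes, of which 26 were tested. With shRNA1 1 rose and 2 fell, where 11.7% of all genes rose and 7.19% fell. With shRNA2 5 rose and none fell, where 15.3% of all genes rose and 11.4% fell. Regardless of the test, 12 of the 26 lay higher than control with shRNA1 and 18 with shRNA2, and 19 lay higher with shRNA2 than with shRNA1. The median log2 fold change of the 26 was -0.02 with shRNA1 and 0.09 with shRNA2, against 0.03 over all genes in each. Between the hairpins 2 were higher with shRNA2, and the median was 0.08. The nucleotidase NT5C3A rose with both hairpins, from 13.6 ± 0.768 FPKM to 16.2 ± 0.694 and 17.0 ± 0.947 FPKM (0.24 and 0.30, adjusted p = 0.0248 and 0.00799). SP110, a nuclear body protein, was 2.80 ± 0.0953 FPKM in controls, 2.71 ± 0.155 FPKM with shRNA1 and 3.49 ± 0.09 FPKM with shRNA2, a rise of 0.24 (adjusted p = 0.00455). TRIM21, an antibody receptor in the cytosol, rose with shRNA2 by 0.27 (adjusted p = 0.0133), and APOL6 fell with shRNA1 (-0.20, adjusted p = 0.033). Genes that mark a strong type I response were near 0 in every group: RSAD2 did not exceed 0.0249 FPKM, CMPK2 did not exceed 0.0266 FPKM and CXCL10 did not exceed 0.274 FPKM in any library.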

How the data were processed

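Polyadenylated RNA of DU145 cells was sequenced as 9 stranded libraries. The deposited FPKM values, per RefSeq transcript, were made by the authors with STAR and Cufflinks. Their versions are not given in the sources used here. The labels name hg38 and the study's methods mm10, and the loci in the tables are human, of hg38. FPKM were summed over the entries of a gene symbol, and the 12509 genes that averaged 1 FPKM or more were tested on log2(FPKM + 1). The test was limma (version 3.58.1, R 4.3.3), and p-values were adjusted over all of these genes by the Benjamini-Hochberg method, with a threshold of 0.05. The 6 knockdown libraries were compared with the 3 controls in a model of 2 groups, and the hairpins in a model of 3 groups. FPKM hold no counts, so depth was estimated and no count test was used. Genes were named if called in any comparison, then by level, and the other members are given by range. The members and lists were chosen with earlier results of these data known. The test was tried on simulated data first. Alternatives changed the pseudocount, filter, scaling, length trend, model and libraries. Columns of no sample numbered 0. Whether counting used strand is not stated, so overlapping genes may share reads. Results of some genes are not reported here.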

Additional observations from a re-analysis of the deposited data

Results flagged for a closer look

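SAMHD1 in shRNA2 replicate 2, at 12.4 FPKM, stood apart from the other 5 knockdown libraries, which ranged from 11.1 to 11.5 FPKM. The gap was 0.694 of the whole range, above Dixon's 95% critical value for 6 samples. It was the only such library among the 28 members tested, where chance, at 1 in 20, gives about 1.4. The 6 libraries pool both hairpins. The effects of the 2 hairpins differed by the test of the difference itself in 4 members, all higher with shRNA2 than with shRNA1: IFI6 by 0.41, IFIT3 by 0.25, IFIT1 by 0.22 and IRF9 by 0.17, as log2 fold changes. Their adjusted p by limma was 0.0499, 0.042, 0.042 and 0.0446.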

How the results depend on the processing

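In the order knockdown, shRNA1 and shRNA2 against control and shRNA2 against shRNA1, 1, 1, 5 and 4 members were called. Without a filter on low values, 0 were called for knockdown, 1 for shRNA2 and 0 between the hairpins. Among genes of at least 5 FPKM, 0 were called for shRNA1 and 2 between the hairpins, where fewer members were tested (16). Median centring gave 3 for shRNA2 and 2 between the hairpins, quantile normalization 2 between the hairpins, and removal of the length trend 2 for shRNA2. Removal of the length trend kept the counts for knockdown and shRNA1 but not the members, which became IFIT5 and IRF9. With only the groups compared in the fit there were 2 for shRNA1, 0 for shRNA2 and 1 between the hairpins. The study's thresholds, p under 0.01 and at least 1.2-fold, were applied to the unadjusted p of limma and to FPKM + 1. The study's own t-test was not run. By these thresholds 0 were called for knockdown, against 3.33% of all genes. Leaving out each library in turn gave 0 to 2, 0 to 2, 1 to 7 and 0 to 4. The highest counts for knockdown, shRNA2 and between the hairpins came without shRNA2 replicate 2. Except where stated the cause was not tested. No member that was called changed sign under any alternative run, but without shRNA2 replicate 1 the only call for knockdown was a fall, of OAS3, in place of the rise of IRF3. IFIT2 with shRNA2 missed the threshold in 1 alternative, the fit of only the groups compared (adjusted p = 0.0501).

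The labels number the libraries, but deviations of libraries with the same number correlated only at -0.071 to 0.111 over 9 pairs, with 1 pair above 0.1. With 3 libraries per group this cannot settle whether libraries of the same number shared a culture or preparation. A replicate block in the fit gave 2, 1, 6 and 3 calls. Depth limits the lowest tested members, of which IFITM1 rests on as few as an estimated 46.3 fragments in a library.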
